A study of Mus musculus with 8 samples.

Results

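The genes that make bile acids, move them and carry sterols out of cells were examined in the livers of adult male C57BL/6NHsd mice after a 6 h fast. The gene list, chosen by symbol, has 32 members, and all 32 were found among the 27179 genes of the deposited table. It covers the enzymes of bile acid synthesis and conjugation, the transporters of the canalicular and basolateral membranes, the sterol efflux pumps and the receptors for FGF15 and for bile acids. RNA was sequenced from 4 wild-type livers, which carry the reference valine of PPARɑ, and from 4 livers homozygous for the V227A allele, which puts alanine in its place. The V227A line came from base editing of C57BL/6NHsd zygotes and goes back to 1 heterozygous founder, and both groups had the same sex, strain and fast. The value used for each gene is the average log2 CPM, which is the read count scaled to library size on a log2 scale. It is a single mean that the authors made over all 8 libraries, wild-type and V227A together. Levels in single livers, their spread and the difference between genotypes were therefore not analysed here, and the values below describe the 2 genotypes pooled.

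Bile acids are made from cholesterol in hepatocytes. In the classic pathway *Cyp7a1* adds the first hydroxyl group to the sterol ring and *Cyp8b1* adds the one that makes cholic acid, while in the acidic pathway *Cyp27a1* oxidizes the side chain and *Cyp7b1* then acts on the ring. The acids are joined to an amino acid, pumped into the bile canaliculus, taken up again in the ileum and returned to hepatocytes by the portal blood. FGF15 from the ileum acts on *Fgfr4* with its partner *Klb* to lower synthesis, and the nuclear receptor FXR senses bile acids inside the cell. PPARɑ is a nuclear receptor of the fasted liver with known targets in sterol and bile acid metabolism.

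Most of the list was abundant in these livers. The median average log2 CPM of the 32 members was 6.66, against 1.89 over the 18937 genes with reads. Of the 32 members, 29 had at least 10 estimated reads per library, a level reached by 48.0% of all genes of the table. By reads, 20 members stood in the top 10% of genes with reads. The summed reads of the list came to 0.808% of all reads, and the 4 most read members held 47.2% of that sum. The members span 13.8 log2 units between *Slc27a5* and *Gpbar1*, the highest and the lowest of the 31 with reads, and *Slc51a* was listed without reads.

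**Figure D1:**
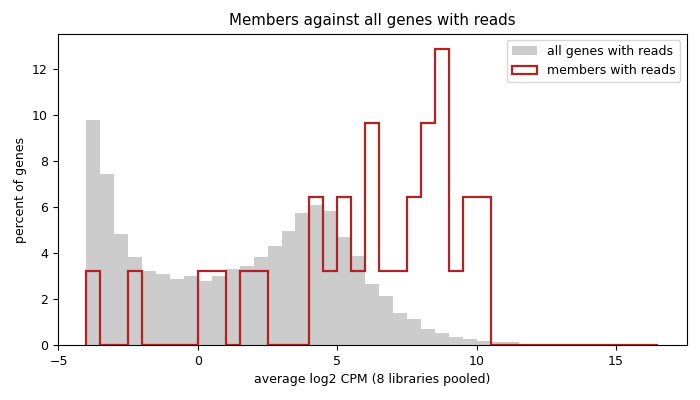
Histogram of the average log2 CPM over 8 pooled libraries (horizontal axis, bins of 0.5) as a percent of genes (vertical axis), for all 18937 genes with reads (grey) and for the 31 members with reads (red line). The median of the grey genes is 1.89, and 26 of the 32 members lie above it.

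Start-site windows of GRCm38.p6 from RefSeq, with 250 bases before each start and 50 after it, were given for 24 of the 32 members. The elements bound by nuclear receptors of this pathway were searched in them on both strands. The 4 windows shown here were picked because they hold matches for FXR, PPARɑ and HNF4A and because 1 of them serves a pair of members. Each sequence runs 5′ to 3′ on the strand of its gene, and capitals mark the matches named after it.
Abcb11: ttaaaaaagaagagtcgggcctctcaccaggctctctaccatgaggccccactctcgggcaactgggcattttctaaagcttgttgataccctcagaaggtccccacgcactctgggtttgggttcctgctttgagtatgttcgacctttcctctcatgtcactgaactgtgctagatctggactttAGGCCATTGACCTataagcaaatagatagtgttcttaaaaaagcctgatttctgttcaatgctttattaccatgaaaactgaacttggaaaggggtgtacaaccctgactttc
Slco1a1: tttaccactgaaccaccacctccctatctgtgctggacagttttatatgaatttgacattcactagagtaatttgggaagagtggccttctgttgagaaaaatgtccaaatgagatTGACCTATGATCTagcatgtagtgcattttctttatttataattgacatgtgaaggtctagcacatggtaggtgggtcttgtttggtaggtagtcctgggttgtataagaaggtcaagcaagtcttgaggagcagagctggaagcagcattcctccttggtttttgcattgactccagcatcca
Cyp8b1: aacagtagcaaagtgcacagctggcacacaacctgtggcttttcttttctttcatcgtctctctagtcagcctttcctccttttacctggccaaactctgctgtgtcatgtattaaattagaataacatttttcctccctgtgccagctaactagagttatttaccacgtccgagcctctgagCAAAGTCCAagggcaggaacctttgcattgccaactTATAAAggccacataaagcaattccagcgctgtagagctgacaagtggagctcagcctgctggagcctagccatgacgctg
Abcg5: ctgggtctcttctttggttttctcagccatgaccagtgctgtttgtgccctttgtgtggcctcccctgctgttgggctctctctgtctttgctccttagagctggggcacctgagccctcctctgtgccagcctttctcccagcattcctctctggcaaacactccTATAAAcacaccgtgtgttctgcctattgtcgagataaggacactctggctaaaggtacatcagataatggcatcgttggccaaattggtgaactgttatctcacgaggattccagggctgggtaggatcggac

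The *Abcb11* window lies on the minus strand at chr2:69342567-69342866. Its capitals are the match AGGCCATTGACCT to IR1, the inverted repeat AGGTCANTGACCT preferred by FXR with RXR, with 1 mismatch, from 63 to 51 bases before the start. With up to 1 mismatch, IR1 was found in 0.0822% of all 32851 windows and in the windows of 2 members, *Abcb11* and *Slco1b2*. The *Slco1a1* window (minus strand, chr6:141946913-141947212) holds TGACCTATGATCT, which matches DR1, the direct repeat AGGTCANAGGTCA preferred by PPARɑ with RXR, on the opposite strand with 1 mismatch. It stands 134 to 122 bases before the start and is the only member window with such a match, against 0.554% of all windows. For DR4, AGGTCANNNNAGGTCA, the form preferred by LXR, no member window had a match with up to 1 mismatch, and 0.250% of all windows did. Sites with more mismatches, or outside these windows of 300 bases, would not be found, so a missing match does not mean a missing site. The half-site AGGTCA alone, which lies inside the repeats, was in at least 1 window of 9 of the 24 members. It was in 16.3% of all windows. The 24 members have 29 windows, so a count of members and a share of windows are not the same unit.

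The *Cyp8b1* window (minus strand, chr9:121916256-121916555) has 2 matches in capitals. The first is CAAAGTCCA, a site of the liver factor HNF4A, from 67 to 59 bases before the start, which 0.475% of all windows hold. The second is a TATAAA box from 31 to 26 bases before the start, a match that 13.6% of windows hold somewhere on either strand. Both strands were searched, and of the 24 members with a window no other had the HNF4A letters. LRH-1, a further regulator of this pathway, prefers CAAGGTCA. That site, which contains the half-site, was in a window of *Abcg2* and in 1.56% of all windows. The palindrome GTTAATNATTAAC of HNF1 was matched with up to 1 mismatch in the window of *Slc10a2* and in 0.207% of all windows. These matches describe the reference sequence and were not tied to any level. They do not show which factor binds there.

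The last window belongs to *Abcg5* (minus strand, chr17:84682962-84683261), whose start at 84683011 of chromosome 17 lies 110 bases from an *Abcg8* start at 84683121 on the plus strand. The pair is transcribed in opposite directions, and their windows share 209 bases. The TATAAA in capitals stands 84 to 79 bases before the *Abcg5* start. The same bases read TTTATA on the strand of *Abcg8*, where they stand 31 to 26 bases before its start.

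Among the enzymes of the classic pathway all 5 were in the top 10% of genes with reads. *Akr1c6*, an aldo-keto reductase that acts on steroids, had an average log2 CPM of 10.13 and an estimated 30842 reads per library. *Cyp8b1*, the sterol hydroxylase on chromosome 9 (121914356 to 121916305 of GRCm38), had 9.11, with 15134 reads. *Hsd3b7*, which oxidizes the sterol ring after its hydroxylation, had 8.62. The rate-limiting enzyme *Cyp7a1* (chromosome 4, 6265612 to 6275633) had fewer reads, 3782, at 7.11. *Akr1d1*, the reductase that gives the ring its bent shape, had the fewest reads of the 5, 2219, at 6.34.

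Levels can be compared between genes only per length, so estimated reads were also divided by the merged exons of each gene, as estimated RPKM (reads per kilobase, scaled to library size). On this scale *Akr1c6* led the whole list with 552, and *Cyp8b1* stood at 282. *Cyp7a1* stood at 33.0, so that *Cyp8b1* was 8.57 times as high as *Cyp7a1*. Over the coding length the same ratio was 4.03, since most of the *Cyp7a1* transcript lies outside its coding part (4174 bases of merged exons, 1509 of them coding). *Akr1c6* was 19.8 times as high as *Akr1d1* per kilobase. The reads of *Hsd3b7* are less certain, because 62.4% of its exon bases overlap the opposite-strand gene *9430064I24Rik* and 62.0% overlap the same-strand gene *Gm49388*. Whether the counting used the strand is not given in the sources used here.

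In the acidic and alternative pathways *Cyp27a1* (chromosome 1), the mitochondrial side-chain hydroxylase, reached an average log2 CPM of 9.66 and 372 estimated RPKM. *Cyp7b1*, the oxysterol hydroxylase that follows it, had 8.54 and 172. Per kilobase *Cyp27a1* was 11.3 times and *Cyp7b1* 5.22 times as high as *Cyp7a1*. Over the coding length these ratios were 5.54 and 2.69. *Cyp39a1*, a hydroxylase for another oxysterol, had 4.30 and 6.43 estimated RPKM, and *Cyp7b1* was 26.7 times as high per kilobase, or 17.6 times over the coding length. A message level is not an enzyme rate, and no flux through either pathway was measured.

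Both conjugating enzymes were abundant. *Slc27a5*, the ligase that activates bile acids with coenzyme A, was the most read member of all, with an average log2 CPM of 10.16 and 31534 reads per library. It ranked 112 among the genes with reads. *Baat*, which transfers the activated acid to taurine or glycine, had 7.77 and 6014 reads. Per kilobase *Slc27a5* was 4.17 times as high as *Baat*, at 471 against 113 estimated RPKM.

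**Figure D2:**
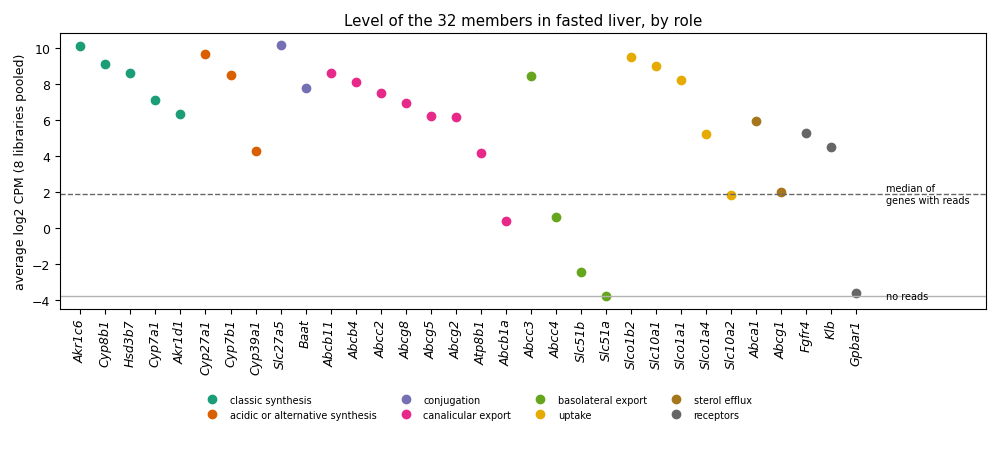
Average log2 CPM over 8 pooled libraries (vertical axis) of each of the 32 members (horizontal axis), coloured by role. The dashed line is the median of all genes with reads (1.89) and the solid line the value of a gene without reads (-3.78). All enzymes of synthesis and conjugation lie above the dashed line, while *Abcb1a*, *Abcc4*, *Slc10a2*, *Slc51b*, *Gpbar1* and *Slc51a* lie below it.

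The pumps of the canalicular membrane covered a wide range. *Abcb11*, the bile salt export pump (chromosome 2, 69238282 to 69342616), led them with an average log2 CPM of 8.64 and 77.7 estimated RPKM. *Abcb4*, which moves phosphatidylcholine into bile, had 8.13, and *Abcc2*, the exporter of conjugated organic anions, had 7.54. The sterol half-transporters *Abcg8* and *Abcg5* had 6.98 and 6.23. Of the pumps for drugs and conjugates, *Abcg2* had 6.18 and *Abcb1a* had 0.38. *Atp8b1*, the aminophospholipid flippase that protects the canalicular membrane, had 4.21.

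Per kilobase of merged exons *Abcb11* was 2.61 times as high as *Abcb4*. This ratio rests on the length chosen, because the merged exons of *Abcb4* add to 9383 bases while its longest transcript has 4079, and over the longest transcript it was 1.16. *Abcb1a* had an estimated 33.9 reads per library and *Abcb4*, its neighbour on chromosome 5, had 7680. *Abcb4* was 132 times as high as *Abcb1a* per kilobase of merged exons and 278 times over the longest transcript, with the coding length in between. Of the stretches of 50 bases in the *Abcb1a* transcripts, 22.5% also occur in another gene. The share was 16.3% for its near copy *Abcb1b*, which had 36.8 reads, 8.37% for *Gm42686* on the opposite strand and 2.33% for *Abcb4*. Reads of *Abcb1a* and these genes could have been split or left out in the counting, so the low value of *Abcb1a* alone is uncertain.

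*Abcg5* and *Abcg8* work only as a dimer, which moves cholesterol and plant sterols into bile. Per kilobase of merged exons *Abcg8* stood at 33.5 and *Abcg5* at 27.7 estimated RPKM, a ratio of 1.21. Over the longest transcripts the ratio was 1.07 and over the coding length 1.62. The exons of the pair overlap on opposite strands by 82 bases.

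On the basolateral side *Abcc3*, which exports conjugates to the blood, was the only member of its role with many reads. Its average log2 CPM was 8.46 and its level 62.0 estimated RPKM, 2.84 times that of the canalicular *Abcc2*. Over the coding length this ratio was 1.92. *Abcc4*, an exporter of the same family, had 0.62 and 40.2 reads per library, so that *Abcc3* was 271 times as high per kilobase. The subunits of the organic solute transporter were close to or at the floor. *Slc51b* had an estimated 3.14 reads per library, or 25.1 over all 8, and *Slc51a* was listed at 0. Of the exon bases of *Slc51a*, 17.7% overlap the opposite-strand gene *Pcyt1a*, which had 1624 reads per library. No ratio is given for this pair.

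**Figure D3:**
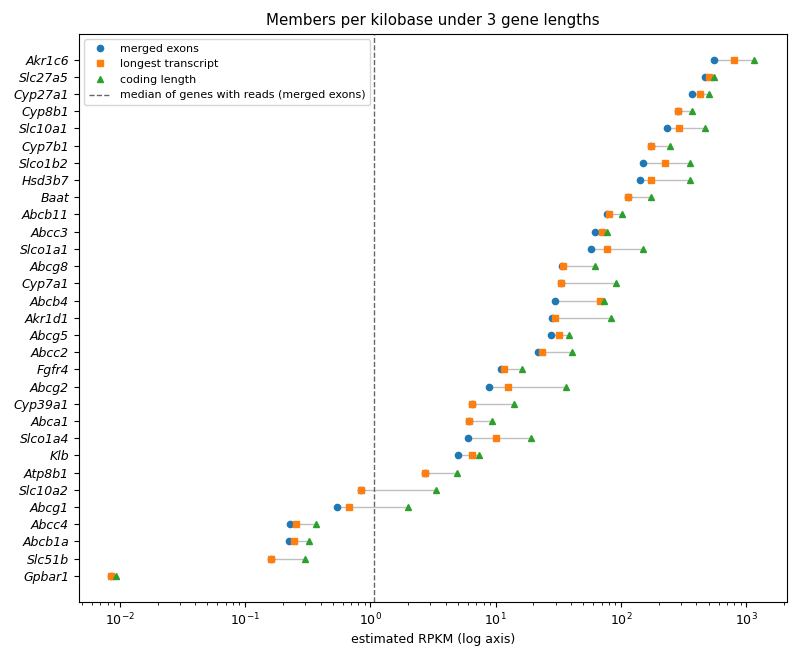
Estimated RPKM (horizontal log axis) of the 31 members with reads, ordered by the level over merged exons. Circles use merged exons, squares the longest transcript and triangles the coding length. The dashed line is the median of all genes with reads over merged exons (1.07). *Akr1c6*, *Slc27a5* and *Cyp27a1* lead under all 3 lengths, and the gap between symbols shows how far a level depends on the length.

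Of the 5 uptake carriers, 3 were in the top 10% of genes with reads. *Slco1b2*, an organic anion carrier of the hepatocyte, had an average log2 CPM of 9.53. *Slc10a1*, the sodium-dependent bile acid carrier (chromosome 12), had 8.99 and *Slco1a1* had 8.24. Per kilobase their order differed, because the merged exons of *Slc10a1* add to 2199 bases and those of *Slco1b2* to 4929. *Slc10a1* had 232 estimated RPKM and *Slco1b2* had 150.1, while *Slco1a1* had 57.3. *Slc10a1* was 2.98 times as high as the export pump *Abcb11* over merged exons and 4.65 times over the coding length. *Slco1a4*, a close relative of *Slco1a1*, had an average log2 CPM of 5.27 and 5.99 estimated RPKM, and *Slco1a1* was 9.58 times as high per kilobase. Of their stretches of 50 bases, 1.64% and 1.61% were found in another gene, mostly of the same cluster on chromosome 6.

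*Slc10a2*, the sodium-dependent carrier of the ileum, was read at an average log2 CPM of 1.84, or 96.2 reads per library. Per kilobase of merged exons *Slc10a1* was 275 times as high, against 346 times over the longest transcript and 140.0 times over the coding length. Besides the ileum, bile duct cells are a known site of *Slc10a2*. The 8 bile duct markers ranged from -2.92 for *Cftr* to 4.58 for *Spp1*, with *Krt19* at 1.92 and *Epcam* at 0.65. Of these 8, 6 had at least 10 reads per library, and *Cftr* and *Tff2* did not. Among all genes with reads, 68.8% reached that level. The ileal genes *Fabp6* and *Fgf15* had 0.503 reads and 0 reads per library. Of the 8 ileal markers, 2 had at least 10 reads per library. They were *Fabp2* with 2366 reads and *Apoa4* with 3421, both also known from liver. The part of bile duct or ileal cells in the *Slc10a2* value was not tested. In bulk liver, fewer cells of a type and less RNA per cell cannot be told apart.

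Sterol efflux to lipoproteins depends on *Abca1*, which loads apolipoprotein A-I, and on *Abcg1*, which loads formed HDL. *Abca1* (chromosome 4) had an average log2 CPM of 5.98 and 6.09 estimated RPKM. *Abcg1* had 2.01, near the 1.89 of the median gene with reads, but its 0.544 estimated RPKM lay below the median of 1.07, and *Abca1* was 11.2 times as high per kilobase. Over the coding length the ratio was 4.69. *Abcg8*, which sends sterol to bile, was 5.51 times as high as *Abca1* per kilobase.

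The FGF15 receptor *Fgfr4* had an average log2 CPM of 5.28 and 1069 reads per library. Its partner *Klb* had 4.52 and 629 reads. Per kilobase *Fgfr4* was 2.18 times as high, and between 1.70 and 2.22 times under the other lengths and without length. The ligand *Fgf15* was listed at 0. *Gpbar1*, the bile acid receptor of the cell surface, had an estimated 0.251 reads per library, which is 2.01 reads over all 8. *Gpbar1* is known from Kupffer and endothelial cells. All 8 markers of each of these lists had at least 10 reads per library, and 6 of 8 bile duct markers did. That level was reached by 68.8% of genes with reads. Whether the cell types present bear on the *Gpbar1* value was not tested. Whether *Gpbar1* was present at a low level in a minority of cells was not tested either.

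The regulators of the pathway were read in most cases, with 10 of 11 at 10 reads or more and a median of 6.98. *Hnf4a*, the hepatocyte factor, had an average log2 CPM of 9.67, *Rxra* 8.73, *Ppara* 8.37 and the FXR gene *Nr1h4* 7.33. The LXR gene *Nr1h3* had 6.81. The repressor *Nr0b2* and the LRH-1 gene *Nr5a2* had fewer reads, at 4.22 and 4.39. Among genes of side-chain shortening and later steps, 8 of 9 had 10 reads or more. *Slc27a2*, a second ligase for bile acid precursors, had 11.01 and 549 estimated RPKM over merged exons, and *Scp2* had 10.65. *Cyp2c70*, the enzyme that makes muricholic acids in mice, had 8.93. *Ch25h* had 0.878 reads per library.

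All 7 hepatocyte markers found in the table were in the top 10% of genes, and 7 of 8 kidney markers were under 10 reads per library. Of the ileal list, *Fabp2* and *Apoa4* were the 2 of 8 at 10 reads or more, and both are also known from liver. No library could be looked at alone.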

How the data were processed

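Liver RNA of 4 wild-type and 4 V227A mice was sequenced from stranded poly-A libraries. The authors trimmed reads (Trimmomatic, FastQC), mapped them to GRCm38/mm10 by RNA STAR, counted them by featureCounts and ran edgeR on Galaxy. Versions, the annotation, the strand setting and the model's covariates are not given in the sources used here. The deposited table holds an average log2 CPM per gene, made by the authors with edgeR over all 8 libraries. It also holds 4 columns of the authors' own comparison (log2 fold change, F, p-value and adjusted p-value), which were not used, and it has 0 columns of values per library. The planned test of V227A against wild-type could therefore not be run, and no mean per genotype, SD or p-value is given.

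Genes at the lowest average log2 CPM, -3.78, were taken as genes without reads, 8242 of 27179. If the authors kept edgeR's default prior count of 2, this floor gives a mean library size of 27473997 reads. Estimated reads per library are the average CPM times this size less the prior count. The table does not say whether reads or read pairs were counted. As a check on low genes, whose summed reads were put at 1 to 5, 99.9% of the 2378 sums came within 0.1 of an integer. Single library sizes are unknown, so no interval is given. Lengths came from GENCODE vM21 (GRCm38), known for 94.8% of genes with reads and for all 32 members, and the authors' annotation may differ. Merged exons were used for estimated RPKM. Stretches of 50 bases were compared between all transcripts of GENCODE vM21.

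The members, their roles and the other lists were chosen with earlier results of these data known, and all members are named. Alternatives changed the read minimum, the prior count, the genes ranked against and the gene length. Python 3.11.15, pandas 2.3.3, numpy 2.4.6 and matplotlib 3.10.9 were used.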

Additional observations from a re-analysis of the deposited data

How the results depend on the processing

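No paired analysis was possible because the values used pool both genotypes, and leaving out single livers was not possible for the same reason. The number of members with at least 10 estimated reads, 29, became 30 at 1 read, 26 at 100 reads and 29 with the prior count kept. The members in the top 10% of genes fell from 20 to 16 among genes with an average log2 CPM of at least 0 and were 18 per kilobase. Of the 10 members highest per kilobase of merged exons, 10 stayed in the top 10 over the longest transcript, and 9 did over the coding length and without length. Among the 29 members with an average log2 CPM of at least 0 the median was 7.11 in place of 6.66. The median percentile of the 31 members with reads, 94.9, was 92.5 among genes with an average log2 CPM of at least 0 and 94.7 among genes with a symbol. The share of all reads was 0.807% with the prior count kept. The ratio of *Abcg8* to *Abcg5* was 1.21 per kilobase of merged exons, 1.07 over the longest transcript, 1.62 over the coding length and 1.67 without length. The ratio of *Fgfr4* to *Klb* was 2.18, 1.81, 2.22 and 1.70 in the same order. *Slc51b*, *Slc51a* and *Gpbar1* were each under 10 reads per library, and the reason was not tested.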

Other observations

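Relatives of the members outside the list were also read. *Slco2b1*, a broad organic anion carrier, had an average log2 CPM of 7.35 and 27.3 estimated RPKM, against 5.99 for *Slco1a4*. In the aldo-keto reductase cluster that holds *Akr1c6*, *Akr1c14* had 7.34 and *Akr1c13* had 6.51, and *Akr1c20*, the only gene that shares stretches of 50 bases with *Akr1c6* (1.38% of them), had 5.57. *Abcc6*, a relative of the conjugate exporters, had 7.69 and 36.0 estimated RPKM, against 21.9 for *Abcc2*. *Slco1a5* and *Slco1a6*, neighbours of *Slco1a1* on chromosome 6, were listed at 0. Of 14 relatives, 11 had at least 10 reads per library.

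In sterol supply *Apoa1*, the acceptor of *Abca1*, had 13.70 and *Lcat*, which esterifies cholesterol on HDL, had 8.85. The HDL receptor gene *Scarb1* had 7.31. *Npc1l1*, the sterol importer, had an estimated 1.01 reads per library.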
